A study of Mus musculus with 2 samples.

Results

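The complement and coagulation factors described here are the 9 genes C1qa, C1qb, C1qc, C3, C6, C7, F13a1, Kng1 and Kng2, chosen by their symbols among the 32285 genes counted in single nuclei of interscapular brown adipose tissue (BAT) of the mouse. The genotypes WT and KO were compared, both homozygous for a floxed Srsf1 gene and both 8 weeks of age. WT mice were Srsf1 flox/flox, and KO mice were Adipoq-Cre; Srsf1 flox/flox, in which Cre recombinase is made from the promoter of Adipoq, the adiponectin gene of mature adipocytes. Males and littermates were used. Each genotype was measured in 1 single-nucleus RNA-seq (snRNA-seq) library, and how many mice went into it is not stated in the sources used here. No test or replicate error can therefore be given, and a gap between the genotypes cannot be told apart from one between these 2 libraries. The KO mice also carried the Cre transgene and the WT mice did not, so the transgene and the loss of Srsf1 cannot be told apart.

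Complement is a cascade of plasma proteins that marks targets for removal. C1q, built from the products of C1qa, C1qb and C1qc, binds the target and starts the classical pathway. C3 is the protein on which all routes converge, and C6 and C7 are parts of the membrane attack complex that forms at the end. F13a1 encodes the catalytic subunit of coagulation factor XIII, which cross-links fibrin. Kng1 and Kng2 encode kininogens, the carriers from which kinins are cut. The liver is the main source of many of these proteins in plasma, and macrophages are a known source of C1q.

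Values are counts of unique molecular identifiers (UMIs, each a captured RNA molecule), added up within a class of nuclei and expressed per 1000000 UMIs of that class (CPM). The main CPM values are followed by their exact 95% Poisson interval, and log2 ratios of KO over WT by the exact conditional interval. These intervals cover counting error only, not the spread between nuclei or between mice. CPM is not corrected for gene length, so levels were compared within a gene and not between genes. Of 12846 WT and 11495 KO barcodes, 12771 and 11378 nuclei were kept, with a median of 3439.5 and 4363 UMIs per barcode. The libraries held 93102814 and 80090208 UMIs, and 52 barcodes occurred in both. The median mitochondrial share of UMIs was 1.10% in WT and 0.0491% in KO, and its part in the differences between the genotypes was not tested. Srsf1 stood at 183 CPM in WT and 60.7 CPM in KO adipocyte-like nuclei, a log2 ratio of -1.59 (-1.67 to -1.51). It was lower by less in ASPC-like nuclei, at -0.55, and in macrophage-like nuclei, at -0.55.

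Nuclei were assigned to classes by the sums of marker genes that include none of the 9 factors. In WT and KO, 4471 and 2526 nuclei were adipocyte-like, 345 and 1657 were like adipose stem and progenitor cells (ASPC-like), and 393 and 2528 were macrophage-like. Another 2157 and 914 were endothelial-like, and 306 and 177 were mural-like. Macrophage-like nuclei thus made up 3.08% of WT (2.78 to 3.39) and 22.2% of KO (21.5 to 23.0) nuclei. Nuclei in which a second list came close, 1444 in WT and 1348 in KO, were set apart as mixed, and 3372 and 1653 nuclei under 1500 UMIs were not assigned. Among the macrophage-like nuclei, 66 in WT and 311 in KO led the next list by 1.5 to 2 times, and 93 and 401 further nuclei with a lead of 1 to 1.5 were among the mixed ones. Over all macrophage-like nuclei the median of adipocyte markers was 11.4 per 10000 UMIs in WT and 5.63 in KO, beside 42.8 and 45.6 of macrophage markers.

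RefSeq promoters (GRCm38.p6) were found for 7 of the 9 genes, with 8 start sites in all. The 250 bases before the start are shown for genes led by macrophages (C1qb, C1qc, F13a1, C6) and for C7, a neighbour of C6 led by ASPCs. Capitals mark GAGGAA, the core bound by PU.1, a transcription factor of the myeloid lineage, read on either strand (TTCCTC on the other).
C1qb promoter (chr4:136886201-136886450, minus strand): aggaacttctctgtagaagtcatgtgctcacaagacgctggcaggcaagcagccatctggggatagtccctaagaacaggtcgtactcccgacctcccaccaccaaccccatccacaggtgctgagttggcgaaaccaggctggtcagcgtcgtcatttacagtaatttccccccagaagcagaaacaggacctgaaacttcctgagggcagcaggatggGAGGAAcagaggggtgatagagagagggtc
C1qc promoter (chr4:136892915-136893164, minus strand): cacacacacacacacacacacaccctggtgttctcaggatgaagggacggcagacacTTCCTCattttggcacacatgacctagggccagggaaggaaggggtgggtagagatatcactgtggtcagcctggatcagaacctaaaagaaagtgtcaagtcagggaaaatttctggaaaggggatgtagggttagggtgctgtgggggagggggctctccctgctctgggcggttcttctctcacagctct
F13a1 promoter (chr13:37050245-37050494, minus strand): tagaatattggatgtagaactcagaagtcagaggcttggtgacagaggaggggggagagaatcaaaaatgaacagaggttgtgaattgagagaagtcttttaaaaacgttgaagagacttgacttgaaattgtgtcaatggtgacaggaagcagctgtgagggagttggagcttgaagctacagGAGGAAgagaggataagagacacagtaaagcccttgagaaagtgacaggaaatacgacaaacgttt
C6 promoter (chr15:4726960-4727209, plus strand): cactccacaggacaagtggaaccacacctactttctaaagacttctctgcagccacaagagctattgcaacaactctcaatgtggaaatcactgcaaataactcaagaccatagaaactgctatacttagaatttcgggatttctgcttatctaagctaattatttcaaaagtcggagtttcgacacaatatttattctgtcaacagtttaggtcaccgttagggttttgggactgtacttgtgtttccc
C7 promoter (chr15:5063774-5064023, minus strand): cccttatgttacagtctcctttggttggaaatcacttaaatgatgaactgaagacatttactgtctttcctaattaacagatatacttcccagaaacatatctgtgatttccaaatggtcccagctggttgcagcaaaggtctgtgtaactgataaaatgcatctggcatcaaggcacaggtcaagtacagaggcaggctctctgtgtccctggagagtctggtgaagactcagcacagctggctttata

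The motif began 30 bases before the start of C1qb, 193 before that of C1qc and 66 before that of F13a1. The windows of C6, C7, C3, Kng2 and the other F13a1 start held none. Among all 32851 promoters, 23.3% held the motif, so its presence in 3 of 8 is a description and not a site of binding.

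Among the 5 named classes each factor other than Kng1 had its highest level in the same class in both libraries. C1qa, C1qb, C1qc, C6 and F13a1 were led by macrophage-like nuclei, C3 and C7 by ASPC-like nuclei, and Kng1 and Kng2 by adipocyte-like nuclei. For Kng1 of WT, with 4 UMIs in adipocyte-like nuclei and 0 in the other classes, which allows up to 2.93 CPM in mural-like nuclei, the leading class is undetermined. Over both libraries the mean level in the leading class exceeded that of the next class 18.9 times for F13a1, 15.1 times for C6 and for C7, and 5.54 to 7.74 times for the C1q genes. The lead was 4.71 times for Kng2, 4.18 times for Kng1 and 2.27 times for C3. Free RNA is shared by all droplets, and low levels in the other classes were not read as expression.

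**Figure D1:**
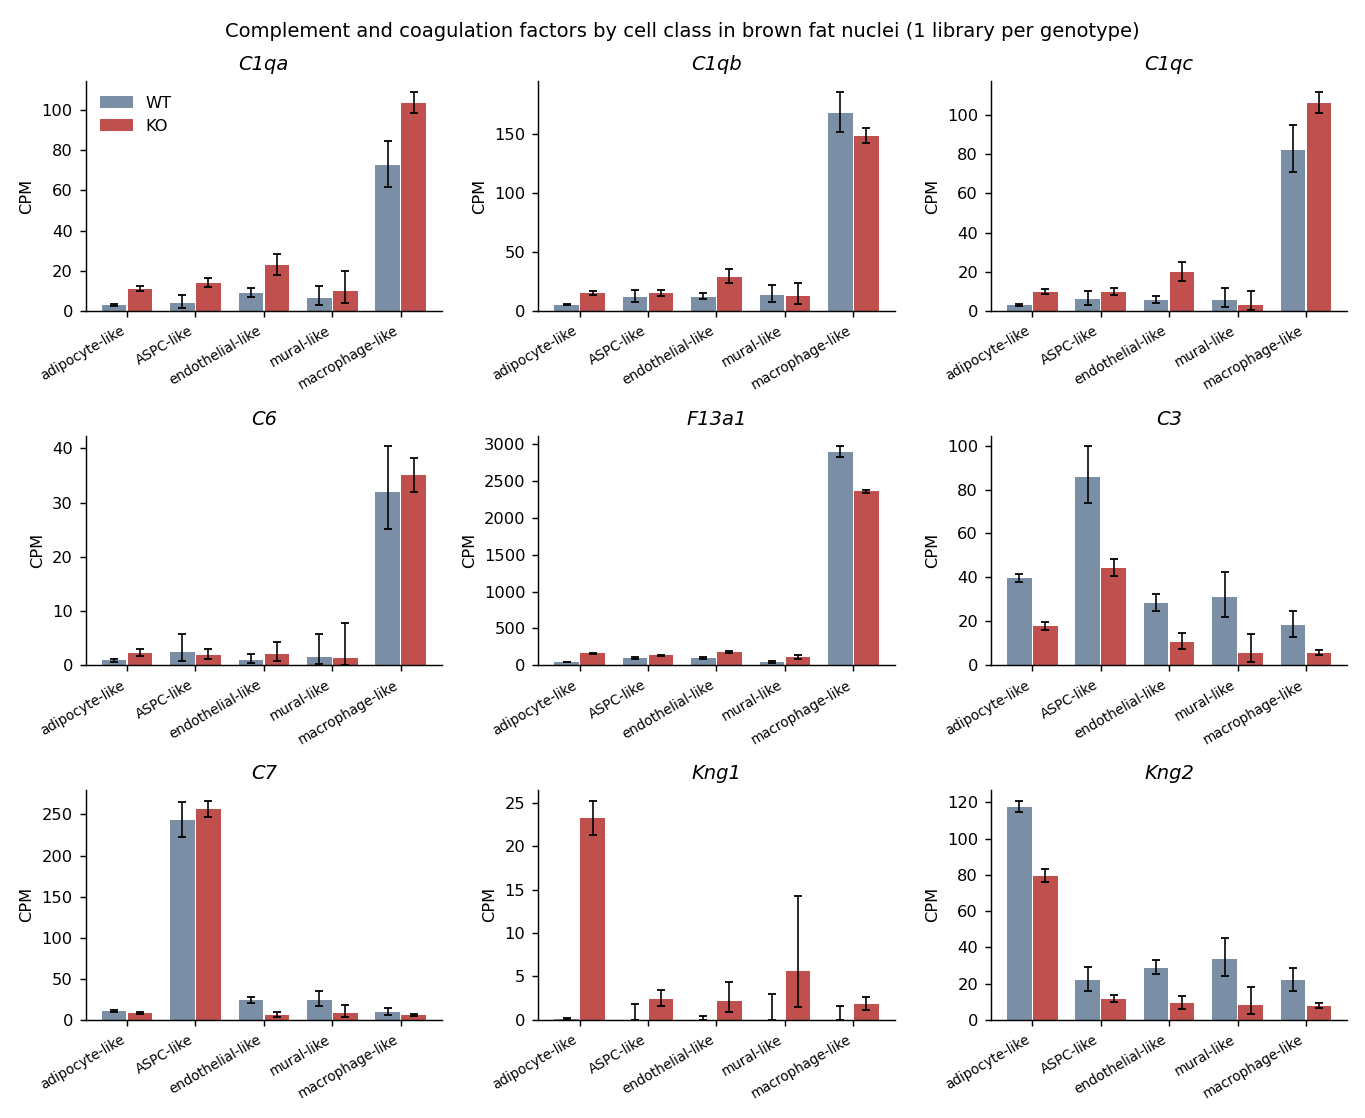
CPM (linear axes from 0) of each factor in 5 classes of nuclei in WT (blue-grey) and KO (red), with exact 95% Poisson intervals and 1 library per genotype. Macrophage-like nuclei lead for C1qa, C1qb, C1qc, C6 and F13a1, ASPC-like nuclei for C3 and C7, and adipocyte-like nuclei for Kng1 and Kng2.

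Over all kept nuclei the macrophage factors were higher in KO, with log2 ratios of 2.30 for C1qa, 1.77 for C1qb, 2.11 for C1qc, 1.64 for C6 and 1.84 for F13a1. Within macrophage-like nuclei the same ratios lay between -0.30 and 0.51. The higher totals thus went with the larger share of macrophage-like nuclei. Among the 8 factors with at least 50 UMIs in macrophage-like nuclei, 0 were over 2-fold higher in KO and 2 were over 2-fold lower, C3 and Kng2, whose leading class lies elsewhere. C1qa passed 2-fold, at 1.02, in the cluster that held most macrophage-like nuclei of both libraries. Of all 11894 genes with that many UMIs there, 5.31% were over 2-fold higher and 12.1% over 2-fold lower.

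**Figure D2:**
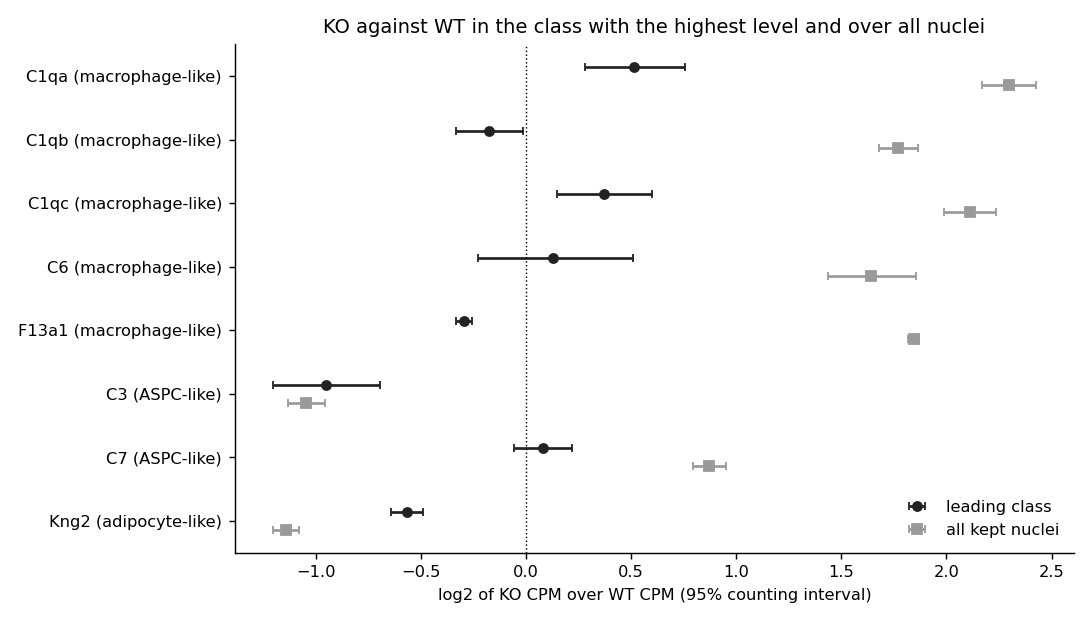
log2 of KO CPM over WT CPM for 8 factors in the leading class (black circles) and over all kept nuclei (grey squares), with 95% counting intervals and a dotted line at 0. F13a1 stands at -0.30 in macrophage-like nuclei and at 1.84 over all nuclei, while C3 is lower in KO on both measures. Kng1, at 8.02, is left off the axis.

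The C1q genes lie within 18.7 kb on chromosome 4 (GRCm38). C1qa stood at 72.5 CPM (61.8 to 84.6) in WT and 103 CPM (98.2 to 109) in KO macrophage-like nuclei, a log2 ratio of 0.51 (0.28 to 0.75). C1qc stood at 82.3 CPM (70.9 to 95.1) and 106 CPM (101 to 112), a ratio of 0.37 (0.15 to 0.60). C1qb, at 168 CPM (151 to 186) and 149 CPM (142 to 155), had a ratio of -0.18 (-0.33 to -0.01), and its sign turned under other settings. The 3 subunits of C1q were therefore higher, higher and nearly level. All 3 were found together in 36 of 393 WT and 244 of 2528 KO macrophage-like nuclei, which were deeper than those without any, with a median of 7258.5 against 3684.5 UMIs in WT and 6846.5 against 3753 UMIs in KO.

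C6 (chr15:4727175-4814967, plus strand) was measured from 72 UMIs in WT and 494 in KO macrophage-like nuclei. Its level was 32.0 CPM (25.1 to 40.4) in WT and 35.1 CPM (32.0 to 38.3) in KO, so the ratio of 0.13 (-0.23 to 0.51) was within counting error. The same nuclei held 28.0% of the C6 UMIs of WT and 66.8% of those of KO, beside 2.83% and 19.2% of all UMIs. In the endothelial-like nuclei, which should lack the gene, C6 was at 1.06 and 2.13 CPM. C6 and F13a1 were found in the same nuclei. F13a1 was present in 33 of 33 WT and 190 of 195 KO macrophage-like nuclei with C6, but only 0 of 69 WT and 5 of 638 KO macrophage-like nuclei without F13a1 held C6. Depth differed little, with a median of 4993 UMIs in WT nuclei without F13a1 and 5164 in those with it, and of 4365.5 and 4566 in KO.

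F13a1 (chr13:36867178-37050244, minus strand) had 6507 UMIs in WT and 33224 in KO macrophage-like nuclei. Its level was 2896 CPM (2826 to 2967) in WT and 2358 CPM (2333 to 2384) in KO, a log2 ratio of -0.30 (-0.33 to -0.26). The sign was the opposite, at 0.23, when only the cluster that held most macrophage-like nuclei of both libraries was used. A median macrophage-like nucleus held 10 UMIs in WT and 5 in KO. After thinning each nucleus to 1000 UMIs, 69.0% of WT and 57.7% of KO macrophage-like nuclei kept a UMI (82.4% and 74.8% unthinned). The same share was 5.15% and 13.3% in endothelial-like nuclei (12.4% and 27.1% unthinned). The median depth was 5145 and 4494.5 UMIs in macrophage-like and 2465 and 2534 in endothelial-like nuclei. Platelets also carry factor XIII. Of their markers in all nuclei of WT and KO, Gp9 had 5 and 4 UMIs, Ppbp 7 and 5, and Gp1ba 17 and 3. Treml1 had 22 and 131 UMIs, of which 8 and 56 lay in macrophage-like nuclei, and Itga2b had 349 and 268. The part of platelet RNA in the F13a1 values was not tested.

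Outside macrophages F13a1 was higher in KO. It stood at 49.98 CPM in WT and 162 CPM in KO adipocyte-like nuclei, a log2 ratio of 1.70 (1.62 to 1.77). The 8 macrophage markers moved with it in the same nuclei, from a sum of 117 CPM in WT to 403 CPM in KO, with 0 of 8 at 0. Divided by that sum, F13a1 was 0.427 in WT and 0.403 in KO, beside 0.605 and 0.510 in macrophage-like nuclei. In the mixed cluster, which held 368 of the KO adipocyte-like nuclei, F13a1 stood at 632 CPM over all KO nuclei. It stood at 45.3 CPM in the cluster that held 1946 of them. In the cluster that held 3455 of the WT adipocyte-like nuclei, F13a1 stood lower, at 16.3 CPM over all WT nuclei. The parts of RNA from macrophages and of doublets in these values were not tested.

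The level in macrophage-like nuclei depended on the kind of macrophage. Resident-like nuclei were called from Lyve1, Cd163, Folr2, Timd4 and Cbr2, lipid-associated nuclei from Atp6v0d2, Mmp12, Gpnmb, Trem2 and Spp1, and monocyte-like nuclei from Gpr141, Mefv, Ccr2, Plac8 and Ly6c2. Resident-like nuclei made up 49.6% of WT (195 nuclei) and 23.1% of KO (583) macrophage-like nuclei. Lipid-associated nuclei made up 13.5% (53) and 37.1% (937), and monocyte-like nuclei 18.3% (72) and 10.8% (272). Resident-like nuclei held the highest level of all 5 macrophage factors among the 3 subsets in both libraries, although for C1qa, C1qb and C1qc of WT the intervals of the resident-like and monocyte-like nuclei overlapped. The 73 WT and 736 KO nuclei in no subset made up 18.6% and 29.1%. In WT they held more C1qa and C1qb than resident-like nuclei, with overlapping intervals. C1qa was at 92.7 against 82.8 CPM and C1qb at 204 against 186 CPM. In KO they held less, at 79.1 against 262 CPM and 138 against 279 CPM.

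Within resident-like nuclei every macrophage factor was higher in KO. C6 stood at 50.8 CPM (39.0 to 65.2) in WT and 100.1 CPM (89.7 to 111) in KO, a log2 ratio of 0.98 (0.58 to 1.39). F13a1 stood at 4127 CPM (4014 to 4242) and 5253 CPM (5176 to 5331), a ratio of 0.35 (0.30 to 0.39), the opposite of its sign over all macrophage-like nuclei. C1qa had the largest difference of the C1q genes, from 82.8 CPM in WT to 262 CPM in KO, a ratio of 1.66 (1.36 to 1.97). The ratio was 1.23 (0.95 to 1.51) for C1qc and 0.58 (0.37 to 0.80) for C1qb.

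Lipid-associated nuclei had less F13a1 and C6 than resident-like nuclei in both libraries. F13a1 stood there at 509 CPM in WT and 833 CPM in KO, a log2 ratio of 0.71 (0.50 to 0.93). C6 had 0 UMIs in WT, which allows up to 9.98 CPM, and 89 UMIs or 14.5 CPM in KO. In monocyte-like nuclei F13a1 was lower in KO, at 1808 CPM in WT and 1349 CPM in KO, a ratio of -0.42 (-0.54 to -0.30), which was -0.10 when a lead of 2 times was asked of a subset. C6 there rested on 6 and 5 UMIs. The WT level of each subset, and of nuclei in no subset, was weighted by its share of the UMIs of KO macrophage-like nuclei. C6 would then stand at 17.1 CPM and F13a1 at 1867 CPM over macrophage-like nuclei, below the 35.1 and 2358 CPM measured. The smaller share of resident-like nuclei and the higher levels within them thus went opposite ways. Levels also differed outside resident-like nuclei, with F13a1 of nuclei in no subset at 2166 CPM in WT and 2874 CPM in KO. The part of each group in the gap to the measured levels was not tested.

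**Figure D3:**
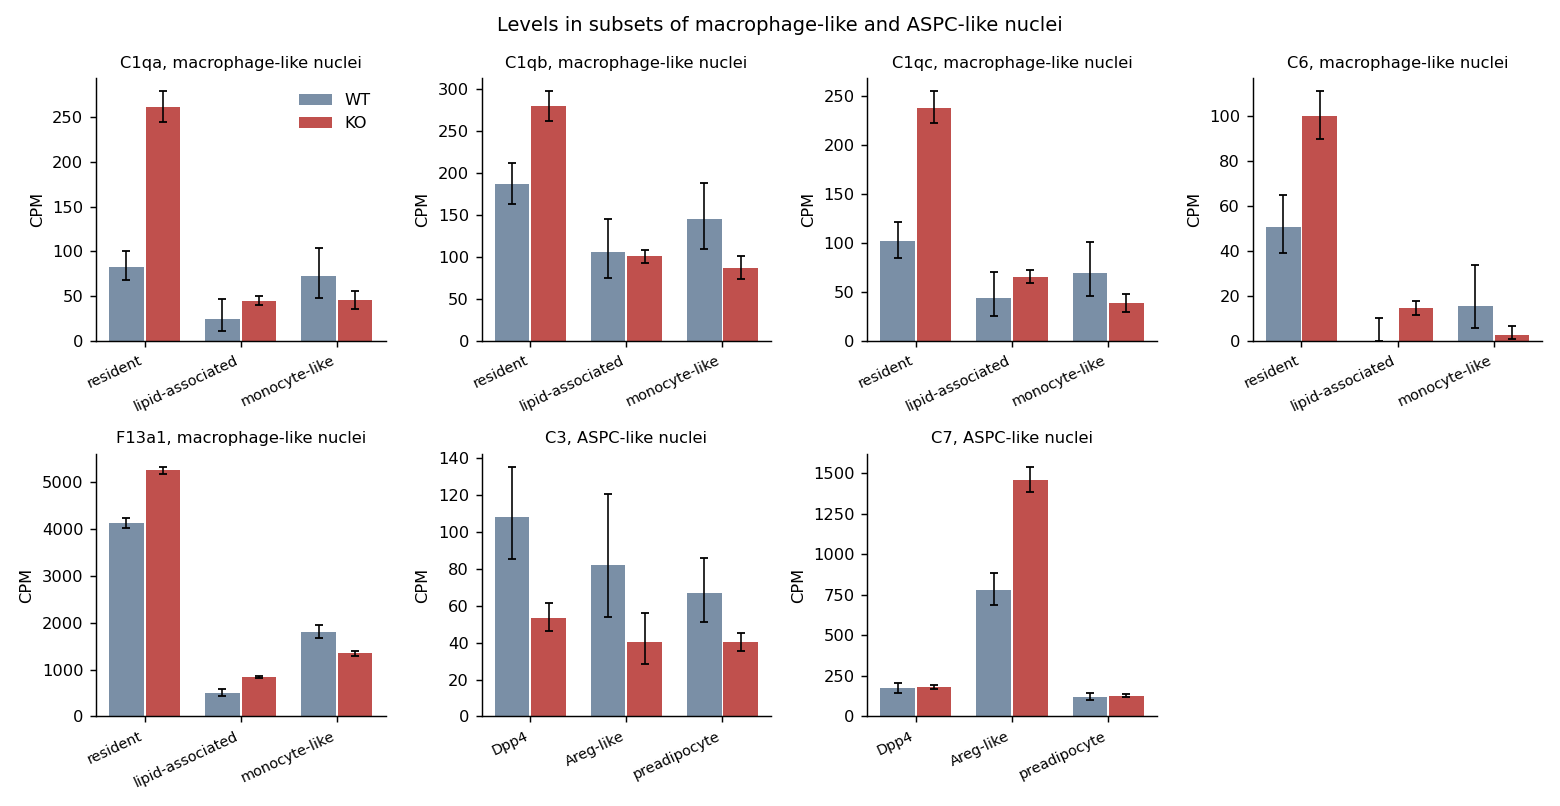
CPM (linear axes from 0) of the macrophage factors in 3 subsets of macrophage-like nuclei, and of C3 and C7 in 3 subsets of ASPC-like nuclei, in WT (blue-grey) and KO (red), with 95% Poisson intervals. C6 and F13a1 are highest in resident-like nuclei and higher there in KO, and C7 is highest in Areg-like nuclei.

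C7 (chr15:4988762-5063740, minus strand), 174 kb from C6 on chromosome 15, was a gene of the precursors. ASPC-like nuclei held it at 243 CPM (222 to 265, 498 UMIs) in WT and 257 CPM (247 to 267, 2826 UMIs) in KO, a log2 ratio of 0.08 (-0.06 to 0.22). The ratio lay between -0.30 and 0.84 under other settings. The other named classes lay at 5.75 to 24.7 CPM across both libraries. Few nuclei carried most of this level, since 22.6% of WT and 21.4% of KO ASPC-like nuclei had a C7 UMI and single nuclei held up to 51 and 157. ASPC-like nuclei held 22.7% of the C7 UMIs of WT and 76.3% of those of KO, and mixed nuclei another 35.7% and 13.1%. Of all UMIs, ASPC-like nuclei held 2.58% in WT and 15.0% in KO, and mixed nuclei 21.6% and 21.7%.

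Among the subsets of precursors the C7 level was highest in the Areg-like one, called from Fmo2, Gdf10, Epha3 and Vit, which held 247 of the 498 WT and 1332 of the 2826 KO C7 UMIs. These were 54 nuclei in WT and 139 in KO, of which 51.9% and 60.4% had a C7 UMI. The intervals do not cover the spread between these nuclei. C7 stood there at 782 CPM (687 to 886) in WT and 1461 CPM (1384 to 1542) in KO, a log2 ratio of 0.90 (0.71 to 1.10). In the Dpp4 subset it was 175 and 181 CPM, a ratio of 0.05 (-0.23 to 0.34), and in the preadipocyte subset 123 and 128 CPM, a ratio of 0.06 (-0.23 to 0.36), both within counting error. The Areg-like share was 15.7% of WT and 8.39% of KO ASPC-like nuclei. As with C6, a level that was higher within the leading subset went with a smaller share of that subset.

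C3 (chr17:57203970-57228136, minus strand) was lower in KO in each of the 5 named classes. In ASPC-like nuclei it stood at 85.9 CPM (73.7 to 99.6) in WT and 44.4 CPM (40.5 to 48.5) in KO, a log2 ratio of -0.95 (-1.21 to -0.70), or 1.94-fold. Adipocyte-like nuclei held 53.9% of the C3 UMIs of WT, beside 56.2% of all WT UMIs. C3 stood there at 39.6 and 17.9 CPM, a ratio of -1.15 (-1.30 to -0.99). The ratios were -1.43 in endothelial-like, -2.48 in mural-like and -1.68 in macrophage-like nuclei, from 216 and 35, 39 and 4, and 41 and 80 UMIs. The Dpp4 subset of ASPCs had the most C3, at 108 and 53.5 CPM, with a ratio of -1.02 (-1.40 to -0.61). The ratio was -1.02 (-1.78 to -0.24) in the Areg-like and -0.74 (-1.15 to -0.31) in the preadipocyte subset. In the nuclei under 1500 UMIs, at 87.1 and 74.9 CPM, the ratio of -0.22 (-0.54 to 0.10) was within counting error. With the level of endothelial-like nuclei subtracted as free RNA, C3 of ASPC-like nuclei stood at 57.3 and 33.7 CPM, a ratio of -0.77, and C3 of adipocyte-like nuclei at 10.996 and 7.27 CPM, a ratio of -0.60. Among the 7 factors with at least 50 UMIs in ASPC-like nuclei, 1 was over 2-fold higher in KO, C1qa, at 3.91 and 14.1 CPM, and 0 were over 2-fold lower. Of 11871 genes there, 5.63% were over 2-fold higher and 11.8% over 2-fold lower.

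Kng2 (chr16:22985854-23029482, minus strand) was made by adipocytes of both genotypes. It stood at 118 CPM (114 to 121, 5249 UMIs) in WT and 79.4 CPM (75.9 to 83.0, 1921 UMIs) in KO adipocyte-like nuclei, a log2 ratio of -0.57 (-0.64 to -0.49). At least 1 UMI was seen in 52.1% of WT but only 25.2% of KO adipocyte-like nuclei, at a median of 7229 and 6920 UMIs. Nuclei with at least 5 Kng2 UMIs were about as common, at 4.97% of WT and 4.91% of KO. They held 29.1% of the Kng2 UMIs of WT adipocyte-like nuclei and 51.3% of those of KO. Kng2 was thus concentrated in fewer KO nuclei.

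Kng1 (chr16:23057865-23082078, plus strand) was nearly restricted to KO. WT adipocyte-like nuclei held 4 UMIs in 4 of 4471 nuclei, or 0.0896 CPM (0.0244 to 0.229). KO adipocyte-like nuclei held 562 UMIs in 315 of 2526 nuclei, or 23.2 CPM (21.3 to 25.2). The log2 ratio was 8.02 (6.65 to 9.90). Kng1 and Kng2 occurred together, with Kng2 in 77.5% of the 315 KO nuclei with Kng1 and in 17.7% of the 2211 without it, at a median of 8573 and 6790 UMIs. The transcripts of the genes share 210 stretches of 90 bases, which are 6.48% of those of Kng1 and 7.70% of those of Kng2, so reads in such stretches could be counted for either gene. The part of shared reads in the Kng1 value of KO was not tested. Of the hepatocyte markers in KO adipocyte-like nuclei, Alb had 7 UMIs, Serpina1a 6, Apoa1 1, and Ttr and Ahsg 0. Cyp2e1, of the same list, had 859 UMIs there, or 35.5 CPM, and 1206 UMIs, or 27.0 CPM, in WT adipocyte-like nuclei.

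Within KO, both kininogens were higher in the adipocyte-like nuclei with relatively more brown markers. Adipocyte-like nuclei were divided by whether brown markers (Ucp1, Ppargc1a, Dio2) or white markers (Lep, Slc7a10) were higher relative to their library, lists that were chosen after the values had been seen. The division is relative within each library. UMIs of the markers were added up, so Ppargc1a weighed most among the brown ones. Brown-leaning nuclei held 201360 Ppargc1a, 67253 Ucp1 and 21861 Dio2 UMIs in WT, and 9355, 1188 and 36 in KO. Ucp1 stood at 1852 CPM in brown-leaning and 1351 CPM in white-leaning WT nuclei, but at 109 and 16.4 CPM in those of KO. Slc7a10 stood at 2.07 and 193 CPM in WT and at 21.9 and 381 CPM in KO. Brown-leaning nuclei of KO were thus lower in Ucp1 than white-leaning nuclei of WT, and the parts of the libraries are not like for like. Kng2 stood at 141 CPM (134 to 148) in 1031 brown-leaning and 21.1 CPM (18.2 to 24.4) in 709 white-leaning KO nuclei, a log2 ratio of 2.74 (2.52 to 2.97). In WT it stood at 123 CPM (120 to 127) in 3838 brown-leaning and 92.5 CPM (86.1 to 99.3) in 629 white-leaning nuclei, a ratio of 0.41 (0.30 to 0.53). Kng1 stood at 39.5 CPM (35.8 to 43.4) in brown-leaning and 8.47 CPM (6.64 to 10.6) in white-leaning KO nuclei. Brown-leaning KO nuclei were the shallower, with a median of 7344 against 9337 UMIs. In the 786 KO nuclei with under 2 UMIs of these markers Kng2 stood at 42.5 CPM. C3 did not follow this division, at 15.5 and 18.7 CPM in brown-leaning and white-leaning KO nuclei.

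**Figure D4:**
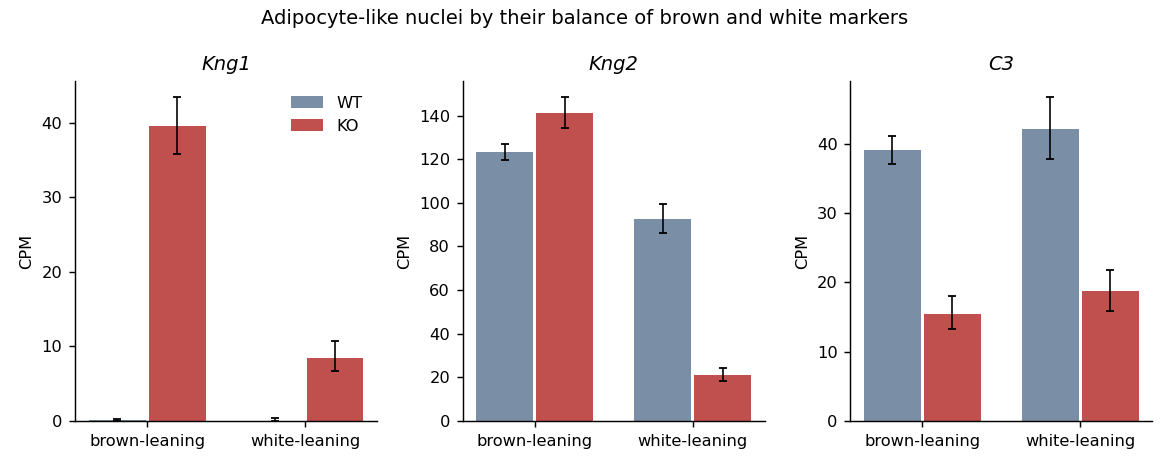
CPM (linear axes from 0) of Kng1, Kng2 and C3 in adipocyte-like nuclei with the higher relative sum of brown or of white markers, in WT (blue-grey) and KO (red), with 95% Poisson intervals. Kng1 and Kng2 of KO are highest in brown-leaning nuclei, at 39.5 and 141 CPM, and C3 is lower in KO in both.

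The kininogen genes are neighbours of Adipoq on chromosome 16, with 28.4 kb between Kng2 and Kng1 and 64.5 kb between Kng1 and Adipoq. On the other side of Adipoq, B630019A10Rik was also higher in KO adipocyte-like nuclei, with 79 UMIs in WT and 1379 in KO, a log2 ratio of 5.01 (4.68 to 5.36). Eif4a2, between Kng1 and Adipoq, had a ratio of 0.75 (0.70 to 0.79) and Rfc4 one of 0.03 (-0.29 to 0.36). Adipoq itself stood at -0.37 (-0.46 to -0.28) and St6gal1 at 0.20 (0.11 to 0.28). Hrg and Fetub, liver genes farther along on the side of Kng2, had 5 and 5 and 4 and 7 UMIs. The Cre transgene uses the Adipoq promoter, and its part in the Kng1 value was not tested.

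**Figure D5:**
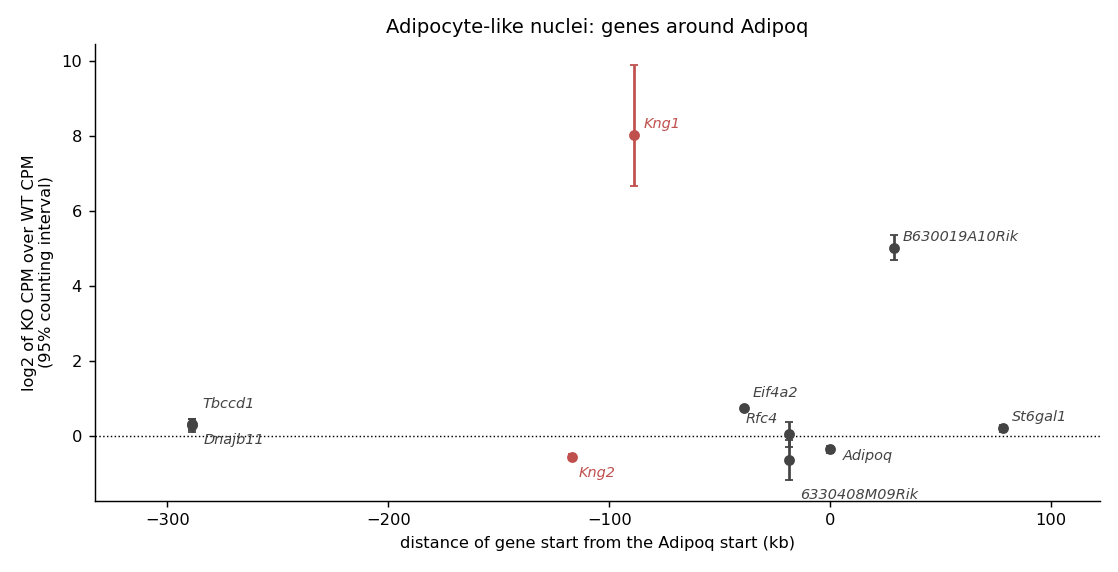
log2 of KO CPM over WT CPM in adipocyte-like nuclei (points, with 95% counting intervals) for genes with at least 50 UMIs around Adipoq, against the distance of the gene's start from that of Adipoq in kb. Kng1 at 8.02 and B630019A10Rik at 5.01 stand above the others, which lie between -0.64 and 0.75.

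In adipocyte-like nuclei 6 of the 9 factors were over 2-fold higher in KO and 1 was over 2-fold lower. Of 15799 genes there, 24% were over 2-fold higher and 16.4% over 2-fold lower. The median gene had a ratio of 0.17. Apart from Kng1 the 6 were C1qa, C1qb, C1qc, C6 and F13a1, all led by macrophage-like nuclei, and the lower one was C3. C1qa, for example, stood at 2.82 CPM in WT and 10.99 CPM in KO adipocyte-like nuclei, beside 72.5 and 103 CPM in macrophage-like nuclei.

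The rest of the pathway was described with 82 other complement and coagulation genes, of which 47 had at least 200 UMIs. Macrophage-like nuclei led for 17, ASPC-like nuclei for 10, endothelial-like nuclei for 10, adipocyte-like nuclei for 6 and mural-like nuclei for 4. Macrophages thus led for C1q but not for the proteases it activates, since C1s1, with 114 CPM in WT and 113 CPM in KO, was led by ASPC-like nuclei. So, on the mean of both libraries, was C4b, a substrate of that protease, at 56.1 and 63.2 CPM in these nuclei. The next class was close for both, mural-like nuclei within 1.33 times for C1s1 and macrophage-like nuclei within 1.09 times for C4b, and in KO C4b was higher in adipocyte-like nuclei, at 83.8 CPM. Among inhibitors, Serping1, which blocks C1r and C1s, stood at 114 and 141 CPM in ASPC-like nuclei, and Cd55, which dissociates the C3 convertases, at 151 and 246 CPM.

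In macrophage-like nuclei 3 of 38 pathway genes with at least 50 UMIs were over 2-fold higher in KO and 5 were over 2-fold lower, with a median ratio of 0.02. Over all genes there the shares were 5.31% and 12.1%, with a median of -0.04, so the counts are near the background. Those higher were Itgax, a subunit of complement receptor 4, at 5.34 and 44.6 CPM, Plaur, the urokinase receptor, at 15.6 and 43.7 CPM, and F10, coagulation factor X, at 11.1 and 24.3 CPM. Vsig4, a complement receptor of resident macrophages, was lower, at 81.4 CPM in WT and 15.0 CPM in KO, a ratio of -2.44 (-2.73 to -2.14). Vsig4 is given over all macrophage-like nuclei, of which a smaller share was resident-like in KO. Cfp, which stabilizes the C3 convertase, stood at 115 and 74.5 CPM. Of the receptors of the C3 and C5 fragments, C3ar1 stood at 84.1 and 92.7 CPM, a ratio of 0.14 (-0.08 to 0.37). C5ar1 was slightly lower in KO, at 153 and 126 CPM, a ratio of -0.28 (-0.44 to -0.10). Pros1, the cofactor protein S, stood at 190 and 242 CPM, and Itgam, a subunit of complement receptor 3, at 176 and 226 CPM.

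In ASPC-like nuclei 5 of 36 pathway genes were over 2-fold higher and 5 over 2-fold lower in KO, beside 5.63% and 11.8% of all genes. The higher ones were Clu, C3ar1, Itgam, Itgax and Itgb2, and all but Clu were led by macrophage-like nuclei. The sum of the 8 macrophage markers in ASPC-like nuclei was 180 CPM in WT and 371 CPM in KO. The part of RNA from macrophages in these counts was not tested. Among those lower was Procr, the receptor of protein C, at 84.0 and 31.5 CPM. In adipocyte-like nuclei 26 of 51 were over 2-fold higher and 6 lower, beside 24% and 16.4% of all genes, and the 26 included genes led by macrophage-like nuclei. Of those led by adipocytes, F5, coagulation factor V, stood at 0.179 CPM (8 UMIs) in WT and 20.0 CPM (485 UMIs) in KO, a log2 ratio of 6.81 (5.82 to 8.03). Adipocytes led for F5 through KO, since in WT macrophage-like nuclei held more, at 2.67 CPM. F3, tissue factor, stood at 40.7 and 96.1 CPM, a ratio of 1.24 (1.15 to 1.33), although in WT ASPC-like nuclei held more, at 60.05 CPM. Serpinc1, antithrombin, stood at 19.8 and 28.3 CPM, and Serpind1, heparin cofactor II, at 4.79 and 0.537 CPM. Cfd, the adipsin that acts on factor B, was lower in every class, at 33.8 and 6.53 CPM in adipocyte-like nuclei.

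Across 11 points of class and library with at least 50 nuclei, 15156 genes with at least 200 UMIs were compared with each factor by Pearson's r of log2(CPM + 1). These points share libraries and the same class contrast, and Csf1r and Mrc1 helped to call macrophages, so the values are descriptions. F13a1 was most like Ms4a4a (0.99), Mrc1 (0.99) and Aoah (0.99), and C6 most like Nxpe5 (0.98), Fcna (0.97), which encodes ficolin A, and Tfec (0.97). C1qa was most like Csf1r (0.98), Ntpcr (0.98) and Bank1 (0.98). C7 was most like Abi3bp (0.98), Lonrf2 (0.97) and Mmp3 (0.97). Kng2 was most like Gnpat (0.99), Fam126b (0.99) and Slc25a51 (0.99), while C3 had the lowest leading value, with Arfip2 (0.94), Megf9 (0.94) and Svep1 (0.94).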

How the data were processed

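Nuclei of interscapular BAT were measured by snRNA-seq in 1 WT and 1 KO library. The deposited values are UMI counts of each gene in each barcode, which the authors made by aligning reads to GRCm38 with STAR in Cell Ranger, and are whole numbers. Version 5.0.0 of Cell Ranger is given in the submitters' processing notes and an earlier one in the study's methods. The methods also describe down-sampling of reads to aggregate the libraries. Whether the deposited counts were made after that step, and whether intronic reads were counted, is not given in the sources used here. Free RNA was not removed from the counts used here, so it can add to every class.

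A nucleus had to have at least 200 genes and no more than 10% mitochondrial UMIs, and its log UMI and gene numbers had to lie within 3 scaled median absolute deviations of those of its library. Each of 17 marker lists was set against its background rate in the library (at least 10 CPM). A nucleus took the class with the largest root of the Poisson deviance if it had at least 3 UMIs over 2 or more markers, 1.25 times the background, a value of at least 3 and a lead of 1.5 times on that value. These conditions, and the minimum of 1500 UMIs, were set after the nuclei had been seen. Scrublet called 0 doublets in WT and 2450 in KO, so it did not work in WT, and mixed nuclei were left out instead. Called doublets were not removed. Of those in KO, 882 were mixed nuclei, while 484 were adipocyte-like, 236 ASPC-like and 188 macrophage-like. A subset was the list with the highest sum relative to its mean rate, with at least 2 UMIs. Clusters, used as an alternative, came from 2000 variable genes without the factors and pathway genes, 30 components, 15 neighbours and a resolution of 0.5. Most WT macrophage-like nuclei lay in cluster 10 (298), and those of KO in clusters 10 (1477) and 11 (725). Most adipocyte-like nuclei lay in cluster 1 (3455) in WT, and in clusters 23 (1946) and 2 (368, the mixed cluster) in KO. Most ASPC-like nuclei lay in clusters 4 and 5 in both.

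Python 3.11.15 with scanpy 1.11.5, numpy 2.4.6, scipy 1.17.1, pandas 2.3.3, igraph 0.11.9 and matplotlib 3.10.9 was used. The calls and ratios were checked on simulated data with Poisson counts. The simulated nuclei were drawn from the marker rates of the called classes and held no mixed nuclei or doublets. The check therefore does not cover such nuclei, or a spread between nuclei beyond counting error. Genes named are the 9 factors, pathway genes with at least 200 UMIs (the highest in a class first, up to 25), the 3 genes most like each factor, markers, Srsf1 and, chosen after their values were seen, neighbours of Adipoq. Some pathway genes are not reported here. Gene places are from GENCODE release M21. The factors and lists were chosen with earlier results of these data known.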

Additional observations from a re-analysis of the deposited data

Results flagged for a closer look

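Some factors differed between KO and WT in opposite directions in different classes of nuclei. The difference of the log2 ratios was 1.99 for F13a1 between macrophage-like (-0.30) and adipocyte-like (1.70) nuclei, 1.65 against mural-like nuclei (1.35) and 1.14 against endothelial-like nuclei (0.85). For C1qb it was 1.71 between macrophage-like (-0.18) and adipocyte-like (1.54) nuclei and 1.44 against endothelial-like nuclei (1.26). Beside these, the sum of 8 macrophage markers was 117 CPM in WT and 403 CPM in KO adipocyte-like nuclei. With 1 library per genotype these differences were not tested.

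Within macrophage-like nuclei, resident-like and monocyte-like subsets went opposite ways. The difference of the log2 ratios was 3.46 for C6, which rests on 6 and 5 UMIs in the monocyte-like subset, 2.09 for C1qc (1.23 and -0.87) and 1.33 for C1qb (0.58 and -0.74). For F13a1 it was 1.13 between lipid-associated (0.71) and monocyte-like (-0.42) nuclei. These differences were not tested either.

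The nuclei under 1500 UMIs, which belong to no class but count among all kept nuclei, held the C1q genes in KO at levels above each named class other than macrophage-like nuclei. C1qa stood at 110 CPM in KO and 20.6 CPM in WT, C1qb at 88.3 and 30.9 CPM, and C1qc at 78.8 and 22.0 CPM. For C1qa the KO level (94.1 to 128) was also above the 103 CPM (98.2 to 109) of KO macrophage-like nuclei, with overlapping intervals.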

How the results depend on the processing

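No paired analysis was possible because there was 1 library per genotype, and for the same reason no replicate could be left out. Of 139 log2 ratios of KO over WT under other settings, 103 stayed within the counting interval of the reported value, 32 moved outside it, and 4 turned the sign of a ratio whose interval excluded 0. For C1qb in macrophage-like nuclei (-0.18) the ratio was 0.085 with clusters in place of calls per nucleus, 0.075 after thinning and 0.19 in the shared main cluster. For F13a1 in macrophage-like nuclei (-0.30) it was 0.23 in that cluster, -0.080 with clusters, -0.25 with fixed limits on genes and mitochondrial share, -0.20 as a mean per nucleus, -0.36 with free RNA subtracted, -0.20 after thinning and -0.24 without the mixed cluster. C6 there (0.13) was 0.65 in the shared main cluster and -0.15 with clusters. C1qa (0.51) was 1.02 and 0.84 under these settings, and C1qc (0.37) 0.79 in the shared main cluster. C7 in ASPC-like nuclei (0.08) was 0.84 with clusters, 0.23 without the top Scrublet scores, -0.30 as a mean per nucleus, -0.14 after thinning, 0.26 without the mixed cluster and 0.42 in the shared main cluster. C3 there (-0.95) was -0.36 with clusters. Kng2 in adipocyte-like nuclei (-0.57) was -0.76 with clusters, -0.43 as a mean per nucleus, -0.34 with free RNA subtracted, -0.73 centred on the median gene, -0.45 after thinning and -0.44 without the mixed cluster. Kng1 lay between 7.46 and 8.27 over 11 settings. With a lead of 2 times for a subset, F13a1 of resident-like nuclei was 0.40 and C7 of Areg-like nuclei 1.18, while C7 was -0.26 in both the Dpp4 and preadipocyte subsets. With at least 200 UMIs, the pathway genes over 2-fold lower in KO numbered 3 in adipocyte-like, 2 in ASPC-like and 2 in macrophage-like nuclei, and those over 2-fold higher in ASPC-like nuclei 1, since fewer genes were tested. The causes of the other shifts were not tested. The settings without the mixed cluster, in the shared main cluster only and without a minimum of UMIs were chosen after seeing the data. Depth limits C6, with 72 UMIs in WT macrophage-like nuclei.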
